A study of Homo sapiens and Mus musculus with 69 samples.

Results

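H82 cells, a NEUROD1-type human small cell lung cancer (SCLC) line (written NCI-82 as the source of these samples), were compared before and after they received a lentiviral vector that was left switched off. Of the 69 libraries of the study, 6 enter this comparison, 3 of parental H82 cells (libraries 1 to 3) and 3 of the H82 line carrying the vector, labelled H82_NOTCH1_no_dox (libraries 4 to 6). All genes of the human table were taken, and 13903 of 20516 passed the filter on low values. The study used bulk RNA-Seq to ask how activation of NOTCH1 changes antigen presentation in SCLC. Parental cells carried no vector and had no treatment named in their labels. The vector (pLIX-hN1ICD) holds the intracellular domain of human NOTCH1 (N1ICD) under a promoter that doxycycline switches on, and transduced cells had been selected and then kept in puromycin or blasticidin, without a statement of which was used for this line. They received no doxycycline, so they are called the uninduced line below. The other H82 groups are the same line with doxycycline and the pair without and with doxycycline in N1ICD lines with *REST* KO or *STING1* KO. They serve here only to share the estimate of the spread and for values set side by side. Parental and uninduced N1ICD libraries of the SCLC lines H524 and H69 are used later. Their fits also hold the N1ICD groups of these lines with doxycycline. For H524 they further hold the groups with a *REST* overexpression vector, without and with doxycycline. The comparison has limits as a model: the labels name 1 uninduced N1ICD line of H82 without a KO, no line with an empty vector was analysed here, and the labels give neither passage nor date. Vector, selection, time in culture and leak of the promoter therefore cannot be told apart. Nothing in the labels says that the 3 libraries of a group are separate cultures. *P* values and standard errors (SE) of the H82 comparison therefore measure a spread between libraries that may be technical. This spread is pooled over all 7 H82 groups and is not that of the 6 compared libraries alone.

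Notch receptors are cut after a ligand on a neighboring cell binds them, and the freed intracellular domain enters the nucleus, where it joins RBPJ and turns on target genes such as the *HES* and *HEY* repressors. In the lung, Notch holds back the neuroendocrine program, and most SCLC keeps it low while expressing inhibitory ligands such as DLL3. SCLC cells that gain Notch activity or the coactivators YAP1 and TAZ tend to lose neuroendocrine genes and to take up mesenchymal ones. SCLC is also known for low expression of antigen presentation genes.

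DNA stretches are printed because the genes beside them carry the results: *DHRS2* and *ZNF22* were lost most strongly, *PTPN13* and *SERPINB9* were gained from near 0, *COL4A1* and *COL4A2* rose together from neighboring start sites, and *HES1* is the standard Notch target. Apart from the collagen stretch, each is the 250 bases before the RefSeq start of the gene, from a RefSeq promoter table of GRCh38.p14, written 5′ to 3′ on the strand of the gene. The coordinates are those of the only match of each sequence in GRCh37, the build whose gene positions are used here. The *DHRS2* stretch lies at chr14:24099074-24099323, that of *ZNF22* at chr10:45496121-45496370, that of *PTPN13* at chr4:87515218-87515467 and that of *HES1* at chr3:193853687-193853936, all on the plus strand. The *SERPINB9* stretch is chr6:2903544-2903793 on the minus strand. The 126 bases at chr13:110959505-110959630, on the plus strand, lie between the start of *COL4A1* and the RefSeq start of *COL4A2*, which are read in opposite directions. The GRCh37 gene annotation draws *COL4A2* from an earlier start, so that all of these bases are inside it. Capitals mark CpG dinucleotides, and in *HES1* the letters TGGGAA, the core of the RBPJ motif.
DHRS2: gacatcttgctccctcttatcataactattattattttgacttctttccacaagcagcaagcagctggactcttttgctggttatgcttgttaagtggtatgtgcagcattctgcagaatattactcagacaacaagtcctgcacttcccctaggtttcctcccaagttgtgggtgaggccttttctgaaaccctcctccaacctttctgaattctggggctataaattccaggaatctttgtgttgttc
ZNF22: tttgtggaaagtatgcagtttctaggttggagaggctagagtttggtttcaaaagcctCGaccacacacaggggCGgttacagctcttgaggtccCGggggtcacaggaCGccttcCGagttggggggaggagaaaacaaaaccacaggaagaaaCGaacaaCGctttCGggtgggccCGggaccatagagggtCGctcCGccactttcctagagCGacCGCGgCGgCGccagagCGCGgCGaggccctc
PTPN13: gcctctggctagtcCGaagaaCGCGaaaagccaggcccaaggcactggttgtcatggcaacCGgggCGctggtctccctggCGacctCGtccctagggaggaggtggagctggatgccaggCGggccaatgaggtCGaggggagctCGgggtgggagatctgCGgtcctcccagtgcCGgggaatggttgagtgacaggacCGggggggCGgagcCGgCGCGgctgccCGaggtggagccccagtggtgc
SERPINB9: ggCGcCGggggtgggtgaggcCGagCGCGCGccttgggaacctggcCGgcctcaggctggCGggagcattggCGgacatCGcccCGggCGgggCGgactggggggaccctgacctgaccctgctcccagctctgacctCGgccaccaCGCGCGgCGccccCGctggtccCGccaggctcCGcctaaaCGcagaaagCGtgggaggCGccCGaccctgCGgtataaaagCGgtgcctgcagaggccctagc
COL4A1 and COL4A2: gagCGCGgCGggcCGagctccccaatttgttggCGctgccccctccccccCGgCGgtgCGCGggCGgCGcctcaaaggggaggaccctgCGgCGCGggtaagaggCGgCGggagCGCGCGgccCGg
HES1: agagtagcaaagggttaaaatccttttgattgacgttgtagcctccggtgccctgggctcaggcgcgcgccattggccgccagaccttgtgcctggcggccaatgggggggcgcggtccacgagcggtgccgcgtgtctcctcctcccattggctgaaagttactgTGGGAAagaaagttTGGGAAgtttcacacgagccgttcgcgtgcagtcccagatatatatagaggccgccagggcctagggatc

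The stretch before *DHRS2* holds 0 CpG, that of *ZNF22* 19, that of *PTPN13* 18, that of *SERPINB9* 27 and the collagen stretch 20. The median is 11 CpG in such 250 bases over all 27305 promoters of the table and 21 over the 10978 tested genes that have one. The collagen stretch is shorter and cannot be set against these medians. TGGGAA occurs 2 times before *HES1*, and 21.1% of all promoters hold it on either strand in the 250 bases. These letters describe sequence and no site of binding, and methylation was not measured.

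Markers checked the identity of the cells before any comparison. *NEUROD1*, the transcription factor that names this SCLC type, had log2(RPKM + 1) values of 13.67, 13.20 and 13.07 in parental libraries 1 to 3 and 13.03, 14.41 and 14.00 in uninduced libraries 4 to 6. The synaptic vesicle gene *SYP* had 6.50, 6.15 and 6.21 against 6.96, 6.90 and 7.01. All 6 libraries thus carry high *NEUROD1*. *POU2F3*, which names the tuft cell type of SCLC, stayed at or below 0.36 in these 6 libraries. The leukocyte gene *PTPRC* was listed at 0 in all 6 libraries, and of 8 immune and endothelial markers 1 passed the filter and 0 were called.

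The libraries differed in ways the groups do not explain. Uninduced libraries 5 and 6 had 158 genes more than 1 log2 unit apart, whereas library 4 had 2264 such genes against library 5 and 1861 against library 6. Among parental libraries, 2 and 3 had 546 such genes, and library 1 had 1534 against library 2 and 1401 against library 3. Library 4 stood closest to a library of the other group, parental library 3, with 1276 genes. Its column heading also carries a read-file ending that the other columns lack. The mean value of 26 hypoxia and glycolysis genes, those that cells turn on when oxygen is short, was 8.74, 6.53 and 5.45 in libraries 1 to 3 and 5.63, 7.89 and 7.70 in libraries 4 to 6. Libraries 1, 5 and 6 were thus high and libraries 3 and 4 low, across both groups. The read depth is unknown, but the size of the 6 libraries relative to the median human library ran from 1.03 to 1.41. Size did follow the groups, as every uninduced library (at most 1.1057) was smaller than every parental one (at least 1.1975). Whether this bears on genes listed at 0 in the uninduced libraries was not tested. In the 6 libraries 15533 to 16021 genes had a value above 0, and the groups overlap in this number.

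Of the 13903 genes tested, 891 (6.41%) differed by at least 1 log2 unit with an adjusted *P* under 0.05 and are named called here. The uninduced line was higher at 521 (3.75%) and lower at 370 (2.66%). Over the 6 libraries left out in turn the count ran from 620 to 1584, the latter without library 4. With only the 2 compared groups in the fit, and so without the pooled spread, it was 321. Of the 891 genes, 476 were called without each of the 6 libraries in turn, 262 of them higher and 214 lower. The groups did not overlap at 3340 genes (24.0%), 1806 (13.0%) higher and 1534 (11.0%) lower. The median difference over all genes was 0.02. In 56 genes a parental mean of at least 2 fell to under 1 in every uninduced library, and 7 of these were listed at 0 in all 3. In the other direction, 69 genes went from under 1 in every parental library to a mean of at least 2, and 8 of these were listed at 0 in all 3 parental libraries. The size of these changes is on the log2(RPKM + 1) scale, which understates changes near 0.

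The largest differences, in *DHRS2* and *ZNF22*, were losses of single genes that parental cells expressed highly. *DHRS2*, a mitochondrial short-chain dehydrogenase, had 10.75, 10.17 and 10.90 in parental libraries and 3.81, 1.52 and 2.10 in uninduced libraries, a log2 difference of -8.13 ± 0.40 (SE, n = 3 and 3, limma adjusted *P* = 7.73e-11). *ZNF22*, a zinc finger gene, had 8.74, 8.67 and 8.52 against 1.90, 1.72 and 2.56, a difference of -6.58 ± 0.36 (adjusted *P* = 3.58e-10). The groups lie far apart in both genes, and every uninduced library is below every parental one. *CTSF*, the lysosomal protease cathepsin F, had 6.21, 6.80 and 6.25 against 0.78, 0.57 and 0.60 (difference -5.77, adjusted *P* = 8.87e-12). *SERPINH1*, the collagen chaperone HSP47, had 6.48, 5.07 and 5.08 against 0.12, 0.83 and 0.13 (difference -5.19, adjusted *P* = 1.84e-09). *SLC43A3*, a nucleobase transporter, had 5.01, 4.91 and 5.30 against 0, 0.29 and 0.17 (difference -4.92, adjusted *P* = 2.25e-14). All uninduced values of these 3 genes are below 1. *XK*, a membrane protein of red cells and neurons, had 5.94, 5.34 and 5.54 in parental cells and was listed at 0 in all 3 uninduced libraries (adjusted *P* = 2.45e-15). *H2AFJ*, a histone H2A variant, had 5.54, 4.54 and 3.72 in parental cells and was likewise listed at 0 in all 3 uninduced libraries (adjusted *P* = 1.7e-07). Symbols of unnamed and noncoding genes (LOC, orf, MIR, SNOR, LINC, RNU and antisense) were left out of these sets of 12, which kept *MIR296* from the losses (5.33, 4.62 and 5.52 in parental libraries, listed at 0 in all 3 uninduced ones). The remaining genes of the 12 largest losses were *CALCB*, a calcitonin gene-related peptide (difference -5.20), *PDC*, phosducin (-5.14), *JPH4*, a junctophilin of neurons (-5.09), *ARMCX1* (-4.38) and *MAGEC1*, a cancer-testis gene (-4.09). Of these 12, *XK*, *ARMCX1* and *MAGEC1* lie on chromosome X, *CTSF*, *CALCB*, *SERPINH1* and *SLC43A3* on chromosome 11, and *DHRS2* and *JPH4* on chromosome 14. The share of tested genes called was 8.99% on chromosome X, 4.89% on 11 and 5.33% on 14, against 6.41% of all genes. On chromosome 11, 22 genes were called higher and 16 lower.

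Genes gained from near 0 formed the other side. *ALDH1A3*, which makes retinoic acid, had 0, 2.55 and 0.67 in parental libraries and 5.82, 7.42 and 7.83 in uninduced libraries (difference 5.95 ± 0.66, SE, adjusted *P* = 4.95e-06). *GABRA5*, a subunit of the GABA-A receptor, had 0.80, 0.72 and 0.41 against 5.00, 6.55 and 6.70 (difference 5.44, adjusted *P* = 6.99e-09). *PTPN13*, a protein tyrosine phosphatase, had 0, 0.13 and 0.17 against 5.25, 5.53 and 5.66 (difference 5.38, adjusted *P* = 8.16e-12). These uninduced libraries all lie above every parental library. *SERPINB9*, the granzyme B inhibitor, had 0, 0.70 and 0 against 5.39, 5.38 and 5.60 (difference 5.23, adjusted *P* = 4.29e-11). *DAPK1*, a death-associated kinase, had 0, 0.07 and 0.22 against 5.25, 4.96 and 5.38 (difference 5.10, adjusted *P* = 1.04e-11). *USP18*, which removes ISG15 from proteins, had 2.25, 0.60 and 0.79 against 5.93, 6.19 and 6.33 (difference 4.94, adjusted *P* = 5.14e-08), and reads of it may be shared with its copy *USP41*. In these 3 genes the uninduced libraries lie close together and above every parental library. *ACOT1*, an acyl-CoA thioesterase, had 0.63, 0.66 and 0.58 against 6.28, 6.26 and 6.17 (difference 5.61, adjusted *P* = 9.43e-14). Its near-identical neighbor *ACOT2* had 0.03, 0.05 and 0.04 against 2.76, 2.90 and 2.78 (difference 2.78, adjusted *P* = 8.94e-10), and the reads of this pair may be split between them. *ADAMTS2*, a procollagen peptidase, was listed at 0 in all 3 parental libraries and had 3.45, 5.27 and 5.91 in the uninduced line (adjusted *P* = 1.71e-06). The other members of the 12 largest gains were *GAS7* (difference 5.10), *GRK1*, rhodopsin kinase (4.60), *SOHLH2*, a germ cell transcription factor (4.45), and *S100A1*, a calcium binding protein (4.41). All 24 genes of both sets of 12 stayed called without each library in turn.

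**Figure D1:**
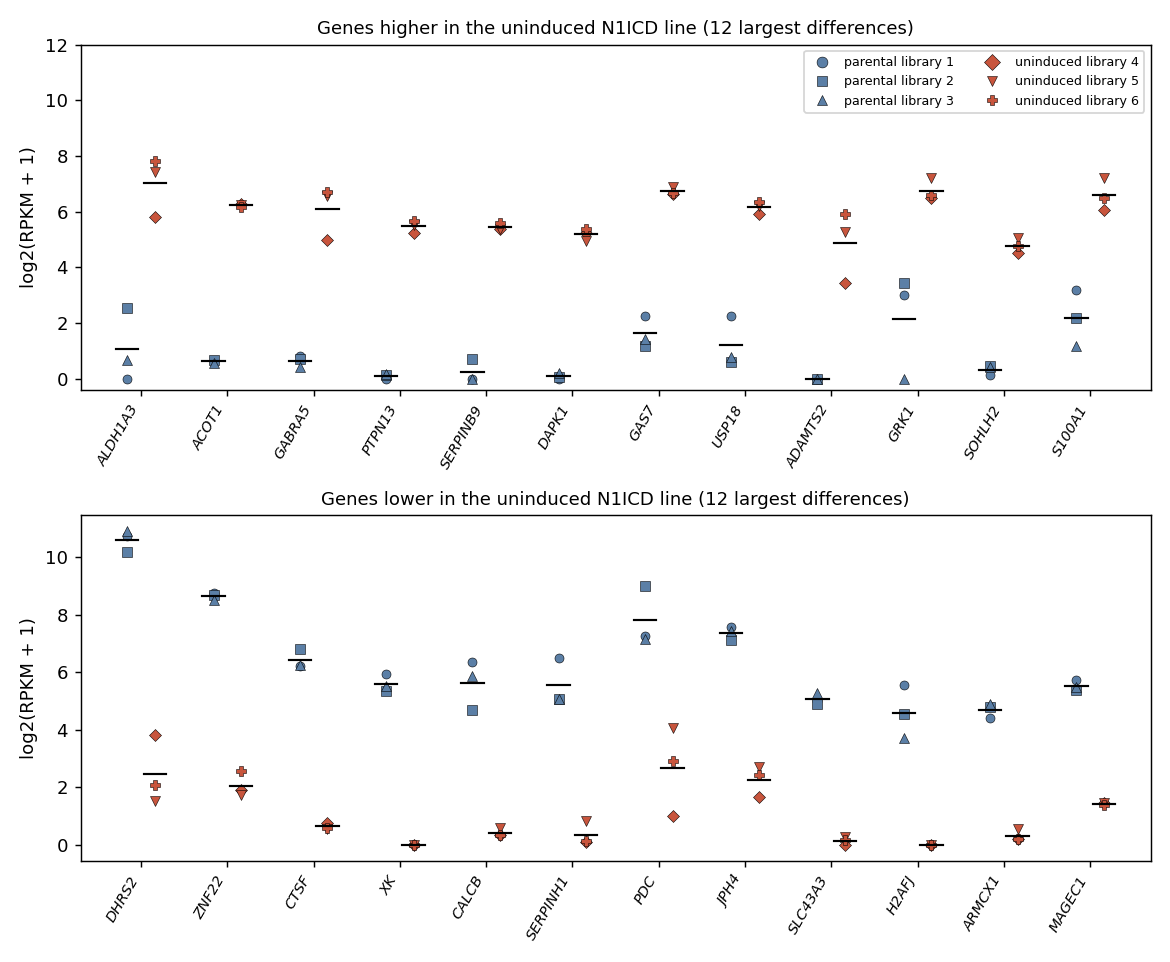
Log2(RPKM + 1) in each library (y axis) of the 12 genes with the largest differences in each direction (x axis; unnamed and noncoding genes left out), with blue markers for parental libraries 1 to 3, red markers for uninduced N1ICD libraries 4 to 6 and bars for group means. The markers of the 2 colors do not overlap in any of the 24 genes; *DHRS2* lies between 10.17 and 10.90 in parental cells and between 1.52 and 3.81 in the uninduced line.

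Reads of *NOTCH1* (GRCh37 chromosome 9, 139388885 to 139440500) would include any transcript of the vector, because the vector holds part of its coding sequence. *NOTCH1* had 0.04, 0.01 and 0.01 in parental libraries and 1.45, 0.88 and 1.15 in uninduced libraries. The groups do not overlap, but the difference of 1.14 ± 0.44 (SE, n = 3 and 3) missed the threshold (limma adjusted *P* = 0.091), and 24.0% of all genes had groups that do not overlap. *NOTCH1* was also not called with any library left out (limma adjusted *P* 0.136 to 0.192). It was called higher with only the 2 groups in the fit, a setting that called 321 genes in all. With a pseudocount of 0.1, 1 of the 3 receptors tested was called higher. With doxycycline the mean value of *NOTCH1* was 4.86, which is 3.70 above the uninduced line (adjusted *P* = 1.56e-06), a comparison in which 27.1% of all genes were called. The uninduced lines with *REST* KO and *STING1* KO had mean values of 1.32 and 1.94. Endogenous and vector transcripts cannot be told apart in these values.

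In the Notch pathway, *DLL3*, *JAG2*, *DTX1*, *NRARP* and *LFNG* rose, and 0 tested receptors, ligands, targets or processing genes were called lower. Among ligands, 2 of 5 tested were called higher and 0 lower, against 3.75% and 2.66% of all genes. *DLL3*, the inhibitory ligand of SCLC, had 4.00, 3.84 and 3.58 in parental libraries and 4.79, 4.89 and 4.88 in uninduced libraries (difference 1.05, adjusted *P* = 7.3e-05). *JAG2*, an activating ligand, had 2.26, 1.74 and 1.95 against 3.60, 3.12 and 3.37 (difference 1.38, adjusted *P* = 0.00104). Uninduced libraries exceeded every parental library for both ligands. With doxycycline both lay below the uninduced line, *DLL3* by -3.94 and *JAG2* by -1.97. Of the targets, 2 of 9 were called higher and 0 lower, with a list median of 0.44. *DTX1*, a ubiquitin ligase of Notch signaling, had 0.66, 0.12 and 0.04 against 1.72, 1.93 and 2.01 (difference 1.61, adjusted *P* = 7.3e-05). *NRARP*, a feedback inhibitor, had 1.64, 1.43 and 1.13 against 2.69, 2.71 and 2.97 (difference 1.40, adjusted *P* = 0.0195). *HES1* had 1.48, 0.26 and 0.19 against 1.42, 1.31 and 1.14, with parental library 1 above all others, and was not called (difference 0.65, adjusted *P* = 0.231). *HES5* was listed at 0 in all 6 libraries. *LFNG*, the Fringe enzyme that modifies Notch receptors, had 2.48, 2.53 and 2.36 against 4.00, 2.92 and 3.51 (difference 1.02, adjusted *P* = 0.0463) and was the only gene called of 15 for processing and cofactors. The receptor *NOTCH2* had 3.99, 3.84 and 3.87 against 4.28, 4.00 and 4.01 (difference 0.20, adjusted *P* = 0.696). Several of these calls depended on 1 library. *DLL3* fell under the minimum difference without library 3 (0.94), with quantile normalization (0.98) and with median-centred libraries (0.9958), which left *JAG2* as the called ligand under both scalings. *LFNG* also lost its call under both (0.92 and 0.97). Among the libraries left out, *NRARP* lost its call without library 3, 5 or 6 (highest adjusted *P* = 0.0812). *LFNG* lost its call without library 1, 2, 3, 4 or 6 (difference 0.76 to 1.06, highest adjusted *P* = 0.131). *HES1* was called only without library 1 (difference 1.07). Of the 5 Notch genes called, *JAG2*, *NRARP* and *LFNG* have a promoter in the RefSeq table, and 0 of these 3 hold TGGGAA in the 250 bases before the start.

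YAP1 and TAZ, the coactivators that work with TEAD factors, rose together. *YAP1* had 2.82, 2.36 and 2.60 in parental libraries and 4.36, 4.60 and 4.14 in uninduced libraries (difference 1.77 ± 0.17, SE, adjusted *P* = 7.96e-07). *WWTR1*, which encodes TAZ, had 0.10, 0.12 and 0 against 1.76, 2.05 and 1.83 (difference 1.81 ± 0.16, SE, adjusted *P* = 4.45e-07). The 3 uninduced libraries were alike in both genes, and library 4 did not stand apart. *TEAD2*, a partner, fell from 2.94, 2.93 and 3.35 to 1.92, 1.95 and 2.08 (difference -1.09, adjusted *P* = 9.64e-04; -0.95 without library 3, under the minimum). Of 11 genes of this list, 2 were called higher and 1 lower, against 3.75% and 2.66% of all genes, with a median of 0.58. The target genes *CYR61* (difference 1.06, adjusted *P* = 0.0828) and *CTGF* were not called.

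**Figure D2:**
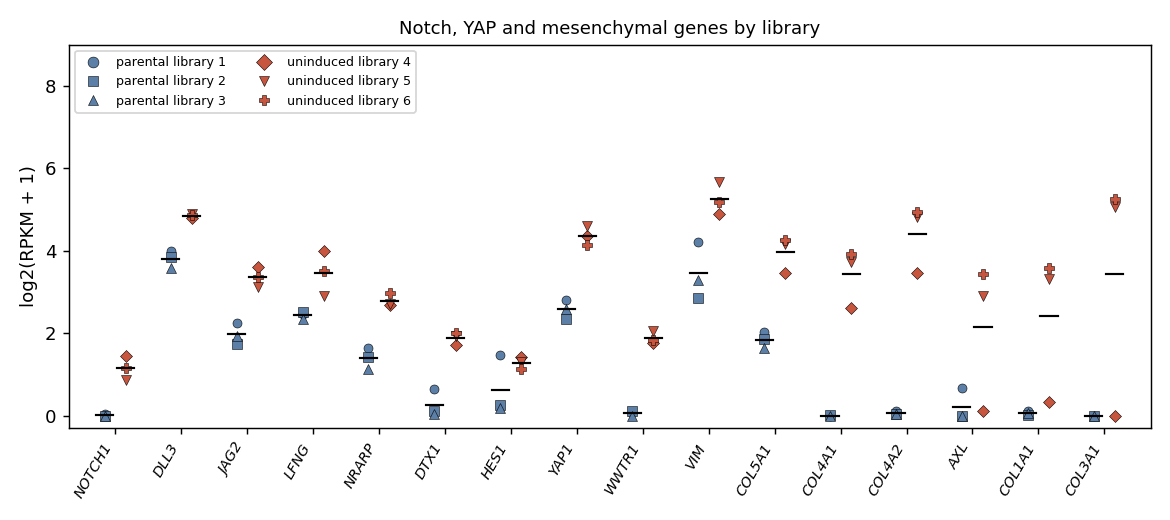
Log2(RPKM + 1) (y axis) in each library for genes of the Notch pathway, of YAP and TEAD and of the mesenchymal program (x axis), with bars for group means, blue markers for parental libraries 1 to 3 and red markers for uninduced libraries 4 to 6. *YAP1* and *WWTR1* hold their 3 red markers close together, whereas *COL3A1*, *COL1A1* and *AXL* have uninduced library 4 near the parental libraries and libraries 5 and 6 well above.

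Of 34 epithelial-to-mesenchymal transition (EMT) genes tested, 9 were called higher and 1 lower, against 3.75% and 2.66% of all genes, with a median difference of 0.50. The mean of the list was 2.45, 2.25 and 2.18 in parental libraries and 2.37, 3.39 and 3.41 in uninduced libraries, so library 4 lay within the parental range. *COL4A1* and *COL4A2*, the collagens of the basement membrane, rose in all 3 uninduced libraries. *COL4A1* had 0, 0.03 and 0 against 2.63, 3.74 and 3.94 (difference 3.42, adjusted *P* = 1.33e-06). *COL4A2* had 0.11, 0.04 and 0.04 against 3.46, 4.81 and 4.96 (difference 4.35, adjusted *P* = 1.7e-07). The annotation overlaps these neighbors at their starts. *VIM*, the intermediate filament of mesenchymal cells, had 4.22, 2.85 and 3.29 against 4.89, 5.68 and 5.19 (difference 1.80, adjusted *P* = 6.34e-04). *COL5A1*, a fibrillar collagen, had 2.03, 1.86 and 1.65 against 3.46, 4.17 and 4.27 (difference 2.12, adjusted *P* = 0.0065). The groups do not overlap in any of these 4 genes. *CD44*, a hyaluronan receptor of mesenchymal cells, was the called member that fell, from 3.67, 3.35 and 3.57 to 1.49, 2.12 and 2.41 (difference -1.52, adjusted *P* = 0.00823).

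The other called EMT genes depended on libraries 5 and 6. *COL3A1* was listed at 0 in parental libraries 1 to 3 and in uninduced library 4 and had 5.06 and 5.26 in libraries 5 and 6 (adjusted *P* = 0.0147). *COL1A1* had 0.13, 0.02 and 0.06 in parental libraries and 0.34, 3.32 and 3.57 in the uninduced ones (difference 2.34, adjusted *P* = 0.0106). *AXL*, a receptor tyrosine kinase of mesenchymal cells, had 0.68, 0 and 0 against 0.12, 2.92 and 3.43 (difference 1.93, adjusted *P* = 0.0326). In these 3 genes library 4 looks like the parental cells. *SNAI1*, an EMT transcription factor, had 7.17, 5.30 and 5.55 against 6.85, 7.77 and 7.55 (difference 1.38, adjusted *P* = 0.0195). *ANXA1*, an annexin, had 0.69, 0.05 and 0.63 against 0.99, 2.17 and 2.75 (difference 1.51, adjusted *P* = 0.0287). Without library 5 or without library 6, all 5 of these calls were lost, and *AXL*, *SNAI1* and *ANXA1* also lost theirs without library 2 or 3 (adjusted *P* up to 0.192 for *AXL*, 0.105 for *SNAI1*, 0.16 for *ANXA1*, 0.0762 for *COL1A1* and 0.104 for *COL3A1*). Without library 4 the difference of *AXL* was 2.95. The list had 4 genes called higher without library 5 or library 6, 6 without library 3 and 14 without library 4. Epithelial genes went both ways, with 2 of 9 called higher (*KRT8* and *CLDN3*) and 1 lower (*ESRP1*), against 3.75% and 2.66% of all genes. *CLDN3*, a claudin of tight junctions, had 1.57, 0.15 and 0.09 against 2.49, 2.44 and 2.37 (difference 1.83, adjusted *P* = 2.55e-04). *KRT8*, a keratin, had a difference of 1.81 (adjusted *P* = 0.00882) and lost its call without library 5 or 6 (highest adjusted *P* = 0.0629). *ESRP1*, an epithelial splicing factor, had 5.74, 4.89 and 4.05 against 1.04, 3.21 and 3.29 (difference -2.37, adjusted *P* = 0.00489).

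Of 8 fibroblast markers 5 were tested, and *COL1A1* and *COL3A1* were the ones called higher. Over all genes 3.75% were called higher and 2.66% lower. *THY1*, a surface protein of fibroblasts and neurons, was called lower, at 3.91, 3.71 and 3.56 in parental libraries against 0, 0 and 0.06 (difference -3.70, adjusted *P* = 2.25e-14). The mean of the 8 markers was 0.66, 0.58 and 0.57 in parental libraries and 0.20, 1.26 and 1.27 in uninduced libraries. The fibroblast genes *PDGFRA* and *DCN* stayed at or below 0.16 in all 6 libraries. In bulk RNA, a change in the share of cells that express a gene and a change of its level in each cell cannot be told apart.

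Neuroendocrine genes, which make and release peptides and transmitters, were mostly not called. Of 16 tested, 0 were called higher and 1 lower, against 3.75% and 2.66% of all genes, with a median difference of 0.33. *SNAP25*, a protein of vesicle fusion, was the one that fell, from 3.20, 3.97 and 4.00 to 2.92, 2.40 and 2.31 (difference -1.18, adjusted *P* = 0.00264). *CHGB*, a granin of secretory vesicles, passed the adjusted *P* but not the minimum difference (-0.91, adjusted *P* = 0.0135). *REST*, the repressor of neuronal genes, had 4.64, 5.33 and 5.09 against 4.42, 4.80 and 4.70 (difference -0.38, adjusted *P* = 0.27). Of the 7 genes of REST and its CoREST complex 0 were called.

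Antigen presentation genes, which load and carry peptides on MHC class I, had 2 of 13 called higher and 0 lower, against 3.75% and 2.66% of all genes, with a median of 0.17. *TAPBP*, tapasin of the peptide loading complex, had 0.80, 0.74 and 0.66 against 1.88, 2.01 and 1.98 (difference 1.22, adjusted *P* = 0.0071), with no overlap. *HLA-E*, a nonclassical class I gene, had 4.54, 2.74 and 2.33 against 3.89, 5.13 and 4.74 (difference 1.39, adjusted *P* = 0.0269); parental library 1 overlaps the uninduced ones, and without library 2, 3, 5 or 6 the call was lost (highest adjusted *P* = 0.156). *HLA-B* had 0.72, 0.23 and 0.14 against 0.65, 0.74 and 0.91 (difference 0.41, adjusted *P* = 0.421). *B2M*, the light chain shared by class I molecules, had 6.80, 6.22 and 6.06 against 6.11, 5.96 and 5.64 (difference -0.46, adjusted *P* = 0.454). Neither *HLA-B* nor *B2M* was called. Of 10 genes that sense nucleic acids, 0 were called. *TMEM173*, which encodes STING, had 0.53, 0.26 and 0.21 against 0.05, 0 and 0 (difference -0.32, adjusted *P* = 0.269). Of 18 interferon-stimulated genes, *USP18* was the only one called, and the median of the list, *USP18* included, was 0.03. *XAF1*, an interferon-stimulated gene of cell death, had 2.07, 4.16 and 5.79 against 7.71, 5.72 and 6.23, with overlap between libraries 3 and 5, and was not called (difference 2.55, adjusted *P* = 0.0926; called without library 3). Of 9 NF-kB genes, *ICAM1*, an adhesion molecule, was called higher, at 2.35, 0.82 and 0.32 against 2.38, 4.14 and 3.67 (difference 2.23, adjusted *P* = 0.00273). Its uninduced library 4 lies close to parental library 1. Of 18 AP-1 and immediate early genes 0 were called.

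Stress genes differed between libraries of the same group. Of 26 hypoxia and glycolysis genes 0 were called, with a median of 0.27; it was 1.04 without library 1 and -0.42 without library 3, and 1.67, with 21 genes called higher, without libraries 1 and 4 together. Integrated stress response genes, which cells use when amino acids or folding fail, had a mean of 6.35 in library 1 and between 4.20 and 4.68 in the other 5. Of these 20 genes 3 were called lower. Over all genes 3.75% were called higher and 2.66% lower, the shares to set beside this and the other lists of this paragraph. *PSAT1*, of serine synthesis, had 7.62, 6.06 and 6.37 against 5.21, 4.45 and 4.32 (difference -2.02, adjusted *P* = 0.0059). *SLC7A11*, the cystine transporter, had 4.90, 4.48 and 5.85 against 3.77, 1.76 and 2.05 (difference -2.55, adjusted *P* = 0.00364). Both had groups that do not overlap. *CHAC1*, which breaks down glutathione, had 5.68 in library 1 and at most 2.43 in the others (difference -2.22, adjusted *P* = 0.0481), and its call was lost without library 1, 4, 5 or 6 (highest adjusted *P* = 0.203), with a difference of -1.05 without library 1, and also with quantile normalization. Heat shock and ER stress genes had 2 of 15 called higher, *HSPA1A* and *BAG3*. *HSPA1A*, an HSP70 whose reads may be shared with its copy *HSPA1B*, had 7.15, 6.80 and 6.35 against 7.79, 11.04 and 7.59 (difference 2.04, adjusted *P* = 0.0397), and its call was lost without library 2, 3 or 5, with a difference of 0.92 without library 5 (highest adjusted *P* = 0.209). *BAG3*, its cochaperone, also lost its call without library 5 (0.88). The related *HSPA6* reached 6.64 in library 5 and was at or below 1.31 in the other 5 libraries. Cell cycle genes had 1 of 25 called higher, the mitotic kinase *PLK1* (difference 1.52, adjusted *P* = 0.027), and 1 lower, the cyclin *CCNE2* (difference -1.37, adjusted *P* = 0.029), and both lost their call without library 1, 5 or 6, *CCNE2* also without 3 (adjusted *P* up to 0.115 and 0.172). Ribosomal protein genes had 3 of 78 called higher (*RPS15A*, *RPS2* and *RPS28*), a share near the 3.75% of all genes, with a median of 0.52, and 0 were called without library 3, without library 5 or with quantile normalization. Cholesterol synthesis (20 tested), p53 targets (11) and drug efflux (6) had 0 called, and the MYC family (2) had 0 called, with *MYC* at 0.88 (adjusted *P* = 0.0127) and *MYCL* at 0.93 (adjusted *P* = 0.0226), both under the minimum. Of 2 tuft cell markers tested, *CHAT*, which makes acetylcholine, was called higher (difference 1.84, adjusted *P* = 0.023), a call lost without library 1, 3, 5 or 6 (highest adjusted *P* = 0.144).

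**Figure D3:**
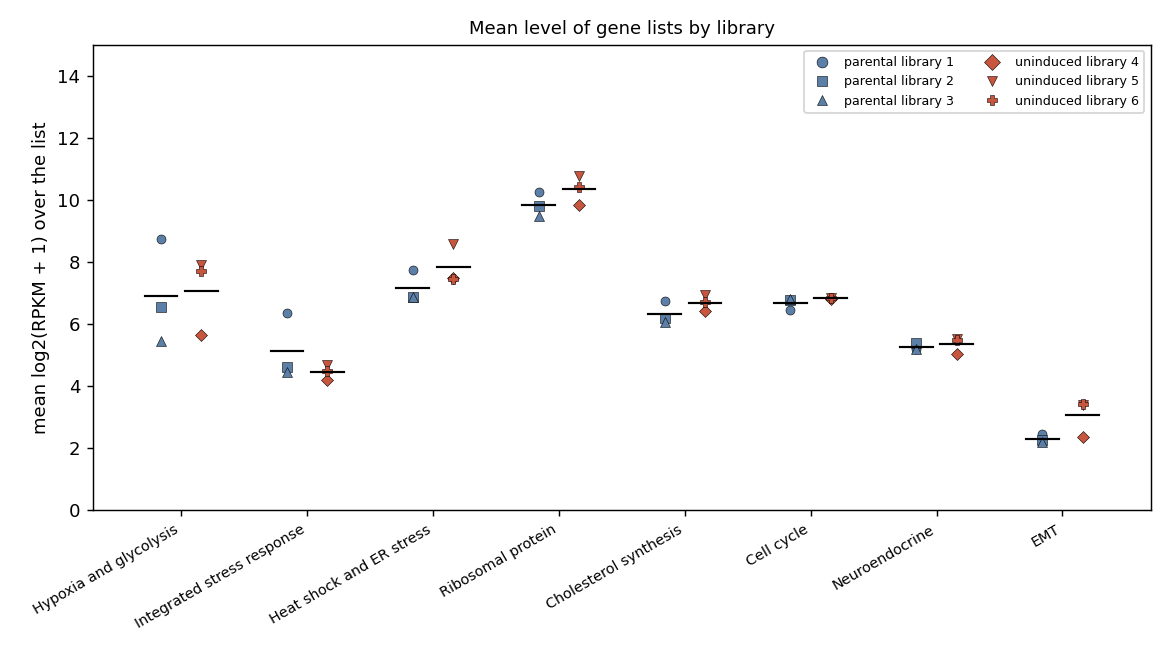
Mean log2(RPKM + 1) of gene lists (y axis) in each of the 6 libraries, with the lists along the x axis, blue markers for parental libraries, red markers for uninduced ones and bars for group means. For hypoxia and glycolysis genes parental library 1 (8.74) is highest and parental library 3 (5.45) lowest, with uninduced libraries 5 and 6 (7.89 and 7.70) near the top and library 4 (5.63) near the bottom.

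Histone genes of the replication-dependent clusters had 4 of 35 called higher and 0 lower, against 3.75% and 2.66% of all genes. *HIST1H1C*, a linker histone, had 3.24, 2.86 and 2.67 against 4.26, 6.99 and 6.21 (difference 2.90, adjusted *P* = 9.11e-04). *HIST1H2BN* had 0.38, 0.51 and 0.70 against 2.81, 3.82 and 3.41 (difference 2.82, adjusted *P* = 1.8e-05). The groups do not overlap in either gene. *HIST2H2BE* (adjusted *P* = 0.00318) and *HIST1H2BG* (difference 1.04, adjusted *P* = 0.00351) were the other 2, and *HIST1H2BG* fell under the minimum without library 5 (0.98), with quantile normalization (0.97) and with median-centred libraries (0.98). Reads of these near-identical genes may be shared, and most transcripts of replication-dependent histone genes lack a polyA tail, whereas the libraries were made from polyA RNA.

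Of 42 cancer-testis genes, which are silent in most adult tissues outside the testis, 7 were called higher and 3 lower, against 3.75% and 2.66% of all genes, with a median of -0.10. *MAGEC1* (difference -4.09), *MAGEA10* (-1.34) and *GAGE2E* (-1.34) fell. *GAGE12J* had 3.39, 3.45 and 3.33 against 6.34, 6.86 and 6.75 (difference 3.26, adjusted *P* = 3.78e-07), and *GAGE12H* differed by 3.07. The copies of the GAGE cluster on chromosome X share nearly all their sequence, so their split is uncertain, with *GAGE2E* at 12.40, 11.96 and 11.94 in parental libraries and 10.80, 10.77 and 10.71 in uninduced libraries. *GAGE12E*, *PAGE1*, *SSX2*, *SSX4B* and *XAGE3* were the others that rose, and *GAGE12E* (without library 6), *GAGE2E* (without 1, 2, 3, 5 or 6), *PAGE1* (2 or 3), *SSX2* (1 or 4) and *SSX4B* (2, 3, 4 or 5) lost their call. The highest adjusted *P* was 0.0546 for *GAGE12E*, 0.116 for *GAGE2E*, 0.0633 for *PAGE1* and 0.202 for *SSX4B*, and *SSX2* fell under the minimum at 0.93. With median-centred libraries *SSX2* (0.95) and *SSX4B* were not called, nor was *SSX4B* with quantile normalization. Of 31 HOX genes, *HOXA9*, a patterning factor, was the one called, lower at 2.68, 2.70 and 2.82 against 0.48, 0 and 0 (difference -2.57, adjusted *P* = 1.91e-05). Of 16 clustered protocadherins, *PCDHGB6* was called lower (difference -1.18, adjusted *P* = 0.00104).

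Genes of whole chromosome arms shifted by small amounts in the same direction in all 3 uninduced libraries. The median log2 difference over the 482 tested genes of chromosome 4 was -0.35, and it was -0.36, -0.35 and -0.36 in libraries 4, 5 and 6, against -0.06, 0.05 and 0.01 in parental libraries (each library minus the parental mean). Chromosome 13 had -0.33 over 243 genes, chromosome 9 had 0.25 over 553, chromosome 16 had 0.21 over 636 and chromosome 18 had 0.18 over 190. In each of the 9 pairs of an uninduced and a parental library, the chromosome 4 median lay between -0.43 and -0.22, and no pair of parental libraries differed by more than 0.12. For chromosome 9 the 9 pairs lay between 0.16 and 0.32, with at most 0.05 between parental libraries. On chromosome 9 libraries 4, 5 and 6 had 0.31, 0.26 and 0.19, and on chromosome 16 they had 0.25, 0.16 and 0.20, so library 4 lay on the same side as libraries 5 and 6. Called genes followed the sign: chromosome 4 had 16 called higher and 49 lower, chromosome 13 had 7 and 18, chromosome 9 had 48 and 8, and chromosome 16 had 39 and 4. The calls rest on the same differences as the medians, so they are no separate evidence of a shift. The shares called were 13.5% on chromosome 4, 10.3% on 13, 10.1% on 9 and 6.76% on 16, against 6.41% of all genes. Splitting at the centromere gap, 4p (-0.35, 151 genes) and 4q (-0.36, 331 genes) were alike. On chromosome 9 the shift lay on 9q (0.36, 412 genes) and little on 9p (0.05, 141 genes), and on chromosome 16 on 16p (0.38, 352 genes) more than 16q (0.08, 284 genes). No DNA was measured and the chromosome medians were not tested, and they are given as a description.

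**Figure D4:**
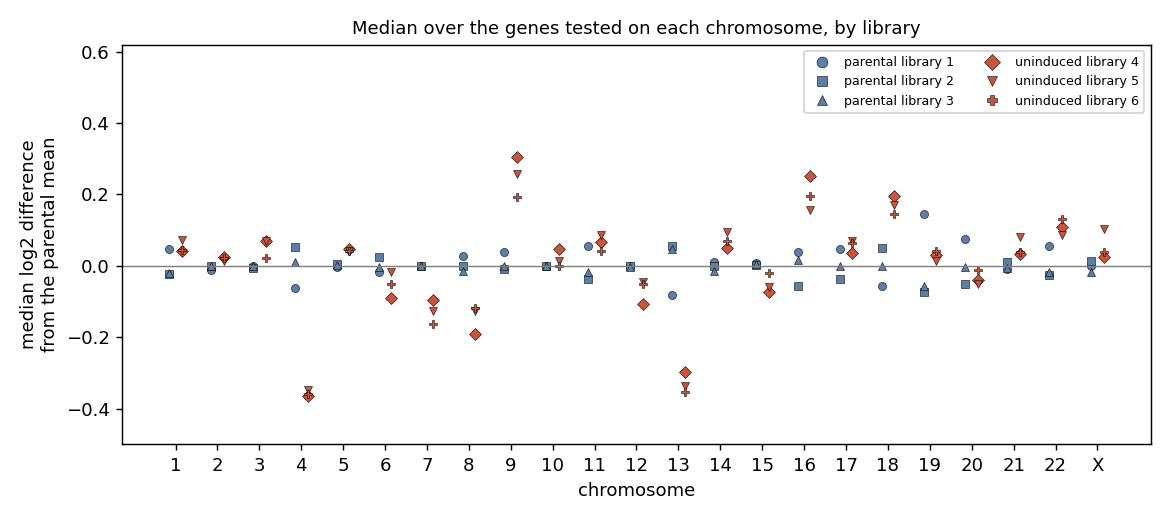
Median log2 difference from the parental mean (y axis) of the tested genes of each chromosome (x axis), with 1 marker for each library, blue for parental libraries 1 to 3 and red for uninduced libraries 4 to 6. On chromosome 4 the 3 red markers lie between -0.36 and -0.35 and on chromosome 13 between -0.35 and -0.30, below every blue marker, and on chromosomes 9 and 16 they lie above every blue marker.

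**Figure D5:**
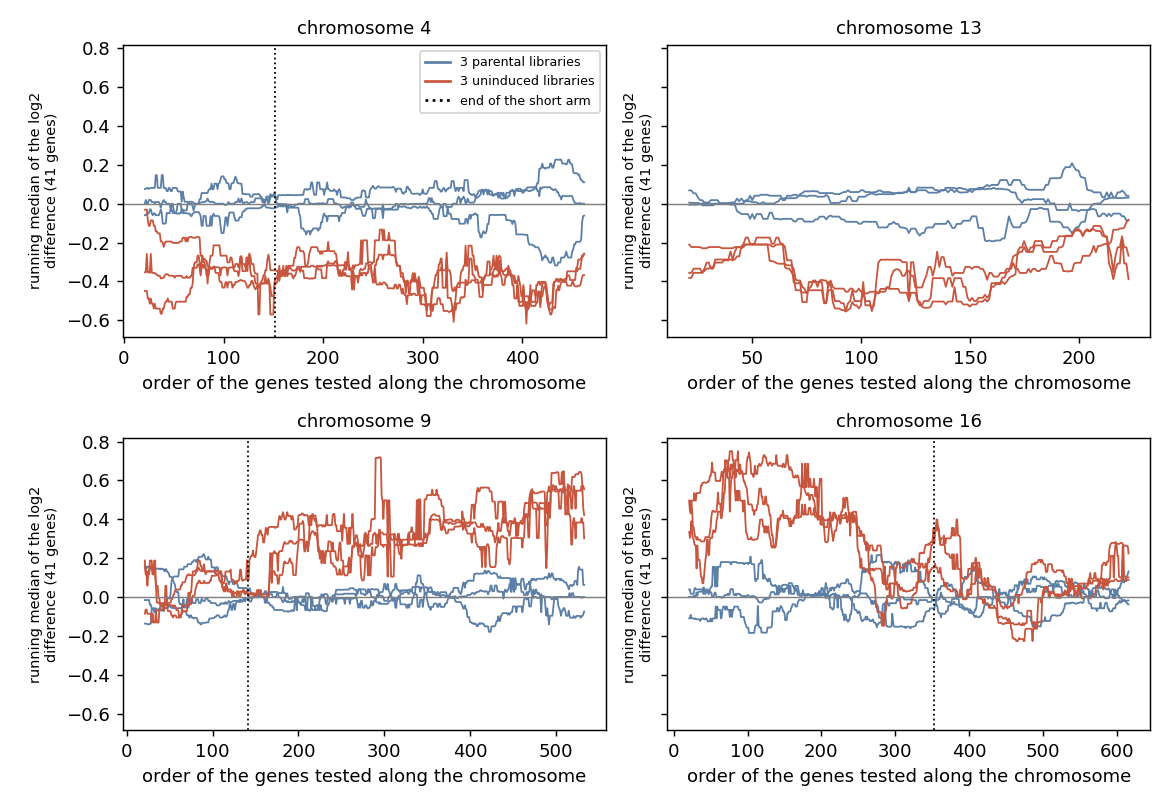
Running median over 41 genes of the log2 difference from the parental mean (y axis) against the order of tested genes along chromosomes 4, 13, 9 and 16 (x axis), with 1 line for each parental (blue) and uninduced (red) library and a dotted line at the end of the short arm. The red lines lie mostly below the blue ones on chromosomes 4 and 13, and mostly above them on the long arm of chromosome 9 and the short arm of chromosome 16.

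The other uninduced H82 lines carry the same vector and share the parental libraries, so only values side by side are given. *DHRS2* had a mean of 0.19 in the uninduced *REST* KO line and 0.91 in the uninduced *STING1* KO line, and 0.59 in the N1ICD line with doxycycline. *ZNF22* had 1.47, 1.63 and 3.21 in the same order. *PTPN13* had 6.06, 5.97 and 5.24, and *SERPINB9* had 6.07, 6.31 and 5.48. The means of *DHRS2* and *ZNF22* were low in these groups and those of *PTPN13* and *SERPINB9* high. *GABRA5*, at 5.00, 6.55 and 6.70 in the uninduced N1ICD libraries, was listed at 0 in the uninduced *STING1* KO line and had 2.33 in the *REST* KO line and 0.73 with doxycycline. *DAPK1* had 0.46, 3.19 and 5.80. The gains of these last genes were thus not held by every group with the vector. The median over chromosome 4 was -0.47 and -0.52 in the uninduced *REST* KO and *STING1* KO lines, and that over chromosome 13 was -0.34 and -0.01. Chromosome 18, at 0.18 in the uninduced N1ICD line, had -0.02 in both of these lines.

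H524 and H69, other SCLC lines given the same kind of vector, have parental libraries of their own. Against their parental cells, 1651 of 13648 genes (12.1%) were called in H524, 4.94% higher and 7.16% lower. In H69 716 of 13580 (5.27%) were called, 3.02% higher and 2.25% lower. Of genes tested in both lines, 189 were called in H82 and H524, which is 24.2% of the H82 calls and 12.7% of the H524 calls, and 104 of them had the same direction. For H69 the number was 87, which is 11.3% of the H82 calls and 15.6% of the H69 calls, and 44 had the same direction. In all, 6 genes were called in the same direction in all 3 lines, and they are *ZNF91*, *COL5A1*, *ASTN2* and *ETFB* higher and *VEGFC* and *PCDH10* lower. *ZNF91*, a KRAB zinc finger gene that represses retrotransposons, had 0.21, 0.09 and 0.13 in H82 parental libraries and 2.90, 2.39 and 2.45 in uninduced libraries. In H524 it had 0.84, 0.74 and 1.33 against 3.61, 3.16 and 3.22, and in H69 0.81, 0.58 and 0.78 against 3.01, 2.95 and 3.03. The differences were 2.44, 2.36 and 2.27, and the groups do not overlap in any line. *VEGFC*, a growth factor of lymphatic vessels, had 6.60, 5.49 and 5.63 against 2.47, 3.23 and 3.47 in H82, with differences of -2.85, -2.36 and -1.96 in H82, H524 and H69. Its limma adjusted *P* was 0.0117 in H524, where the groups overlap, and 0.0272 in H69. Groups also overlap for *COL5A1* in H524, for *PCDH10* in H82 and for *ASTN2* in H82 and H524. In H82, *ASTN2*, *ETFB* and *PCDH10* did not keep their call without each library in turn. How many genes the 3 lines would share without any link between them was not worked out. *CTSF* also fell in H524 (-6.33), and *ALDH1A3* also rose in H69 (4.58). The difference between the H82 and the other change was past the threshold at 2894 of 15439 genes (18.7%) for H524 and at 1339 (8.67%) for H69.

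Some of the 10 genes with the widest range among the uninduced libraries are given here, and they differed in which library stood apart. *GNGT1*, a G protein subunit of rods, had 6.23, 1.61 and 2.08 in libraries 4 to 6 and 6.51, 6.98 and 6.59 in parental libraries, so library 4 resembled parental cells. *ALDOC*, a glycolytic aldolase, had 4.01, 8.41 and 8.07, and 8.48, 6.42 and 3.75 in parental libraries 1 to 3. It spans the same range in both groups. *HSPA6* had 0.76, 6.64 and 0.48. *SERTAD4-AS1*, an antisense RNA gene, had 6.02, 3.79 and 0, and 5.69, 5.40 and 6.58 in parental libraries.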

How the data were processed

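Bulk RNA-Seq of polyA RNA from 21 H82 libraries in 7 groups was used, 6 of them in the comparison. As the methods of the study and the submitters' notes give it, the authors trimmed reads with Cutadapt, aligned them with STAR, quantified genes with RSEM on hg19 and scaled the libraries by TMM; the versions of these tools are not given in the sources used here. The deposited table holds log2 values of RPKM + 1, a scale that understates changes near 0, and holds no counts, so depth is known only as relative size from the steps between low values.

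limma 3.58.1 (R 4.3.3) was fitted with 1 mean for each of the 7 groups and a variance trend. A gene entered the fit when 3 or more H82 libraries reached a log2 value of 1. Two-sided *P* values had a Benjamini-Hochberg adjustment that took in every gene tested, and called genes had a log2 difference of at least 1 in size at an adjusted *P* under 0.05. The H524 and H69 comparisons were fitted with all groups of their line. Differences between lines were tested in 1 model of all H82, H524 and H69 libraries, those with doxycycline or the H524 *REST* vector included. The fit was tested on simulated data. Gene positions are from the GENCODE annotation of GRCh37 (18990 genes matched by symbol and 1274 by an older symbol). Figures and sequence tables were made with Python 3.11.15, pandas 2.3.3 and matplotlib 3.10.9.

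The genes named were genes the study is about, the 12 largest called differences in each direction with groups that do not overlap and a higher mean of at least 2 (Y-linked genes and unnamed or noncoding genes, by the symbols LOC, orf, MIR, SNOR, LINC, RNU and antisense, left out), and called members of the lists with up to 4 others. Of the widest 10 among the uninduced libraries, and of the genes called in the same direction in other lines, only some are named. *ACOT2*, outside this rule, was chosen after its values were seen. Members and lists were chosen with earlier results of these data known. Alternatives were no filter, no trend, no minimum difference, quantile normalization, a pseudocount of 0.1, each library left out, a fit of only the compared groups and libraries centred on their median. Leaving out libraries 1 and 4 together was added after seeing the data. The mouse table was not used.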

Additional observations from a re-analysis of the deposited data

Results flagged for a closer look

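The change from parental to uninduced cells in H82 was set against that in H524 and in H69 by the interaction in limma. A set of 119 genes was followed, most of them named in the report. Their changes differed by at least 1 log2 unit with an adjusted *P* under 0.05 at 67 genes for H524 and 65 for H69. The shares over all genes were 18.7% and 8.67%. Many of the 119 were chosen for a large difference in H82, so these counts say nothing about them. Dixon's test of single libraries was not run on groups of 3. The genes given below are not a ranking of the largest differences between lines. Apart from *AXL*, *VIM* and *NEUROD1*, they are genes that were also called in the other line. Other large differences, in genes not called in the other line, are left out below. They include *DHRS2* (-8.12) and *ALDH1A3* (5.97) against H524, and *DHRS2* (-8.47), *GABRA5* (6.78) and *XK* (-6.29) against H69.

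Against H524, *H2AFJ* differed by -8.10 (-4.60 in H82, 3.50 in H524, adjusted *P* = 1.23e-12), *GABRA5* by 7.44 (5.44 and -2.01, adjusted *P* = 5.32e-12), *PTPN13* by 6.52 (5.38 and -1.14, adjusted *P* = 2.68e-19) and *S100A1* by 6.24 (4.41 and -1.83, adjusted *P* = 8.57e-08). In these 4 genes the change had opposite signs in the 2 lines. *USP18* differed by 3.67 (4.94 and 1.27, adjusted *P* = 5.46e-07), *SERPINB9* by 2.18 (5.23 and 3.04, adjusted *P* = 0.00956) and *AXL* by 1.97 (1.93 and -0.04, adjusted *P* = 0.0128). The H82 change of *AXL* rests on uninduced libraries 5 and 6 (2.92 and 3.43, with 0.12 in library 4), and its H82 call was lost without library 2, 3, 5 or 6. *VIM*, the mesenchymal filament, differed by 3.35, with 1.80 in H82 and -1.55 in H524 (adjusted *P* = 1.53e-05).

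Against H69, *DAPK1* differed by 8.57 (5.10 and -3.46, adjusted *P* = 1.26e-15), *ADAMTS2* by 3.65 (adjusted *P* = 4.52e-05), *H2AFJ* by -3.54 (-4.60 and -1.06, adjusted *P* = 3.04e-05) and *AXL* by 1.83 (1.93 and 0.10, adjusted *P* = 0.0361). *NEUROD1* differed by -4.52, with 0.50 in H82 and 5.02 in H69 (adjusted *P* = 7.63e-04).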

How the results depend on the processing

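No paired analysis was possible because the libraries of the compared groups carry different numbers in the labels. Of 119 genes followed through the alternatives, no called gene changed direction. The count of 891 called genes (521 higher, 370 lower) was 620 to 1584 over the 6 libraries left out in turn (349 to 949 higher, 271 to 635 lower), 321 with only the 2 groups in the fit (188 and 133), 1911 without libraries 1 and 4 together (1175 and 736) and 1903 with no minimum difference (1051 and 852). With a pseudocount of 0.1 it was 1324, with 569 lower. It stayed within 1.5 times under no filter (827), quantile normalization (775), median-centred libraries (880) and no trend (890). Of the 119 genes followed, 87 were called, and 61 of these kept their call without each library in turn. This set holds some genes that the text does not name. It lacks some that the text does name, such as *ACOT2*, *MIR296*, *ASTN2*, *ETFB* and *PCDH10*. The count of genes that differ from H524 was 2212 to 3860 over the libraries left out and 935 with only the 4 groups, and that for H69 was 1120 to 1921. Over genes with a mean of at least 3 the chromosome medians were -0.40 (chromosome 4), 0.36 (9), 0.26 (16) and 0.28 (18). Leaving out each library gave -0.41 to -0.33 for chromosome 4, -0.40 to -0.29 for 13, 0.23 to 0.30 for 9, 0.18 to 0.25 for 16 and 0.15 to 0.20 for 18. The causes of these differences were not tested. Without counts, depth sets an unknown floor for genes near 0.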

Other observations

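Chromosome medians of the other uninduced H82 lines, given as values against the same parental libraries, were -0.38 on chromosome 15 in the *REST* KO line and -0.42 in the *STING1* KO line, where the uninduced N1ICD line had -0.05. On chromosome 3 they were 0.00 and -0.60, and on chromosome 2 they were -0.05 and -0.47.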
